A study of Homo sapiens with 4 samples.

Results

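The genes described here are the urokinase system, cathepsins and sheddases of T24 cells, 9 genes chosen by symbol: PLAU, PLAUR, PLAT, SERPINE2, CTSB, CTSL, ADAM10, ADAM17 and MMP14. All 9 matched a row among the 58302 Ensembl genes of the deposited tables. T24 is an established human cell line from a urothelial carcinoma of the bladder. PolyA RNA was sequenced in 4 libraries, 2 from T24 cells with a CRISPR/Cas9 knockout of IGF2BP3 and 2 from T24 cells labelled control. The product of IGF2BP3 is an RNA-binding protein that recognises messenger RNAs, often ones modified with N6-methyladenosine. The knockout is described as a stable line, and the labels do not say how many clones it comes from, what the control cells received, or whether same-group libraries are separate cultures. The p-values therefore measure only the spread between these libraries, pooled largely over genes of like mean level, and that spread may be technical.

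Urokinase, the product of PLAU, is a secreted serine protease that cuts plasminogen to plasmin at the cell surface, where its receptor, the product of PLAUR, holds it. Plasmin degrades matrix proteins and activates other proteases. Tissue-type activator (PLAT) acts on the same substrate, and serpins such as SERPINE2 (protease nexin-1) trap the activators. Cathepsins B and L are cysteine proteases of lysosomes that tumour cells can also secrete. ADAM10 and ADAM17 cut the outer parts of membrane proteins, among them growth factor precursors, cytokine receptors and adhesion molecules, and MMP14 is a membrane-anchored collagenase that activates other matrix metalloproteinases. Urokinase and its receptor are long known in bladder cancer for their link to invasion.

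Promoter sequences are shown for the 3 members with the largest fitted rise in the knockout (PLAU, CTSL and ADAM17) and for the urokinase receptor PLAUR, whose fitted change was the 1 fall. Each is the stretch of 250 bases before a RefSeq transcription start (GRCh38.p14), 5′ to 3′ on the gene's strand. Capitals mark matches, on either strand, to an AP-1 site (TGANTCA), a GC box (GGGCGG), an ETS core (CGGAAG) or a TATA box (TATAAA). PLAU has a pair of RefSeq starts, and the stretch of the downstream one is shown, a choice made after the matches were seen. The PLAU stretch is chr10:73910882-73911131 (plus strand), PLAUR chr19:43670170-43670419 (minus), CTSL chr9:87725869-87726118 (plus) and ADAM17 chr2:9555831-9556080 (minus).
PLAU: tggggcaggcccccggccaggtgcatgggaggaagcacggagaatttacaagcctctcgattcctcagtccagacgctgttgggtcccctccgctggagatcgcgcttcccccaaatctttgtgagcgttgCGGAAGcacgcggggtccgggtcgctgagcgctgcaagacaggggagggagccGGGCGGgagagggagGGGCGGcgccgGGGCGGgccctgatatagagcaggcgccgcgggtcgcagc
PLAUR: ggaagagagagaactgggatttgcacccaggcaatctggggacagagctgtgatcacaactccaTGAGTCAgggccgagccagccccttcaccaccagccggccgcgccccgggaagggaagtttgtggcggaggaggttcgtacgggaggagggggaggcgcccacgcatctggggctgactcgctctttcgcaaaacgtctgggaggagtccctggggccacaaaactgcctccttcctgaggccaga
CTSL: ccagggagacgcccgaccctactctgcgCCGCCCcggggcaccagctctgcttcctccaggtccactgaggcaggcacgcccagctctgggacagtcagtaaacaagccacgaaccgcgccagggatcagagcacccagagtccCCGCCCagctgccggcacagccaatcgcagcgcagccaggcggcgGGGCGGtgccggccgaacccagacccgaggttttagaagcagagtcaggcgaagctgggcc
ADAM17: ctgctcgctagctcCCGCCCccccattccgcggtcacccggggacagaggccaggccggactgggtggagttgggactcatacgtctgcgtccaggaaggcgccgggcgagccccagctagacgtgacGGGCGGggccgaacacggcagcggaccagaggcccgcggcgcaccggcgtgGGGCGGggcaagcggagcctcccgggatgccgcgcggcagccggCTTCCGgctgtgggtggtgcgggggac

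The AP-1 letters occurred in the PLAUR stretch alone among the 9 stretches used, and in 6.6% of 35116 promoter stretches of that length. The 9 cover 7 of the members, as PLAU and SERPINE2 have 2 starts each. Stretches of PLAT and CTSB, on chromosome 8, were left out, a filter not applied to the 35116. GC boxes occurred in 7 of the 9 stretches and in 42.6% of all, with 3 matches each in the PLAU, CTSL and ADAM17 stretches shown. The stretch before the other PLAU start, chr10:73910360-73910609, held 0 matches to any of the 4 motifs. The ETS core was found in 3 of the 9 and in 16.5% of all, and TATAAA in 0 of the 9 and in 10.7% of all. These matches describe letters in this window. Binding was not measured, and elements further upstream were not searched.

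The level of expression is given as FPKM (fragments per kilobase of transcript relative to the gene-assigned reads of the library), the deposited unit. Whole reads behind each value were recovered from it, and the libraries held 811823 and 1240207 reads in the knockouts against 2162179 and 1870884 in the controls. Genes above 0 numbered 7827 and 11127 in the knockouts against 8856 and 11433 in the controls. Control 1 thus had the most reads but fewer genes above 0 than knockout 2 or control 2. The lowest value of PLAUR lay in knockout 1, and the lowest values of CTSL and ADAM17 lay in control 1. Replicates resembled each other little, with a median SD of 1.79 on the log2 scale over 11463 tested genes, and 49.4% of these were listed at 0 in at least 1 library. IGF2BP3 itself had 0 and 0.190 FPKM in the knockouts against 2.94 and 21.5 in the controls, which goes with the labels. Markers of leukocytes were at 0 in all 4 libraries (0 of 11 genes above 0). Of 7 fibroblast markers 3 were above 0 in any library, with DCN, LUM, PDGFRA and PDGFRB at 0 throughout, and their summed FPKM was 0 and 6.73 in the knockouts against 14.9 and 3.95 in the controls. COL1A1 among them had 0 and 6.59 FPKM in the knockouts against 14.9 and 0 FPKM in the controls. Of 7 endothelial and red cell markers CDH5 alone was above 0, in control 2 at 2.72 FPKM. Of 17 urothelial and epithelial markers 10 were at 0 throughout, KRT5, KRT19, EPCAM and most uroplakins among them, while KRT8 and KRT18 were abundant. The summed FPKM of these markers was 1545 and 1170 in the knockouts against 440 and 582 in the controls, the same direction as PLAU. Most of the sum was KRT8, at 1138 and 816 FPKM against 266 and 397, and KRT18, at 303 and 314 FPKM against 173 and 173. The sum thus mostly describes these keratins. Of the list, 5 genes were tested and all 5 had a fitted value above 0, beside 48.2% of all genes. In 3 of them both knockouts lay above both controls, beside 12.1% of all genes. KRT7 was among these, at 56.9 and 33.1 FPKM in the knockouts against 0 and 4.27 in the controls. PPARG overlapped, at 46.1 and 0 FPKM in the knockouts against 0 and 6.85 in the controls. The part of the keratin difference in the results, like that of depth and of the number of genes above 0, was not tested.

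Differences were tested with limma on log2(FPKM + 0.5), knockout minus control, over the 11463 genes averaging 1 FPKM or more, and Benjamini-Hochberg adjustment covered all of them. A fold change on that scale understates the change of low genes. The fit uses a variance trend, so SE and p rest largely on genes of like mean level, less on the gene's own replicates. Without the trend, the SE of PLAUR was 1.90 in place of 1.14, and that of SERPINE2 was 1.51 in place of 2.67. Of all genes tested, 10 (0.0872%) passed an adjusted p of 0.05, with 0.0611% higher and 0.0262% lower in the knockout. Of the 9 members, 8 had a mean of at least 1 and were tested, and 0 passed in limma (2 at an unadjusted p under 0.05, PLAU and ADAM17, against 3.91% of all genes). Limma-voom on the recovered reads also called 0 of the 8 (1 at an unadjusted p under 0.05). IGF2BP3, the gene knocked out, did not pass either, on 0 and 1 reads in the knockouts against 27 and 171 in the controls. Its fitted log2 fold change was −3.89 ± 2.83 (SE, adjusted p = 0.955 in limma).

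The members did not all point the same way. PLAU, CTSL, SERPINE2, ADAM10 and ADAM17 had both knockout libraries above both controls, whereas the libraries of PLAUR, CTSB and MMP14 overlapped and PLAT was listed at 0. In bulk RNA a difference in every cell and a difference in the share of cells that express a gene cannot be told apart. Over all genes tested, 12.1% had both knockouts above both controls and 14.4% had both below. SERPINE2 and CTSL reached the mean of 1 through their knockout values, so their presence among the tested genes is not independent of their direction. The same limit holds for TSPAN15 and ALCAM, described below, and, through the control values, for CTSV, CXCL16 and IGF2BP3. The median log2 fold change of the 8 tested members was 1.53, beside −0.08 over all genes tested, and 7 of the 8 had a fitted value above 0 beside 48.2% of all genes.

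**Figure D1:**
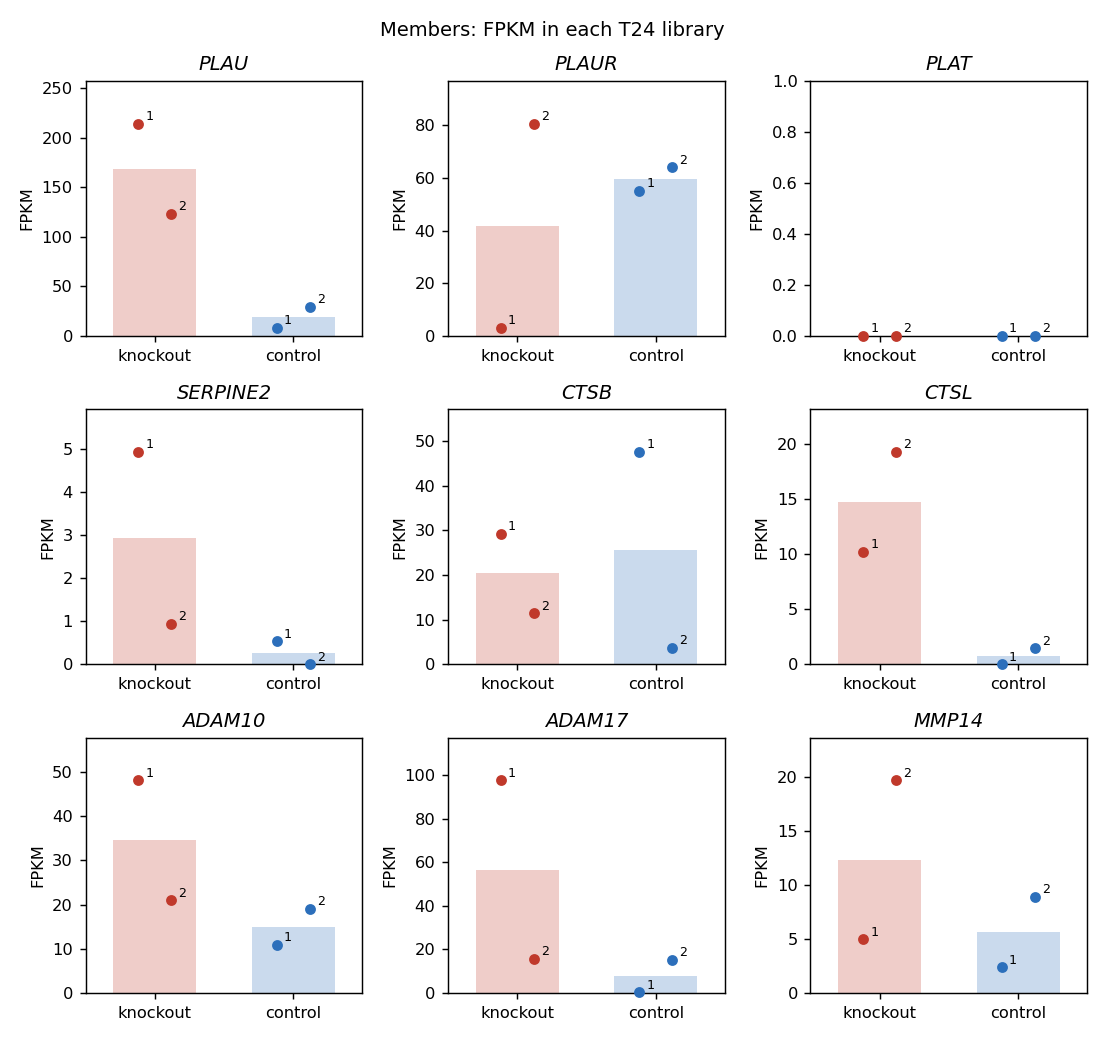
FPKM (linear axis from 0) of the 9 members in each library, with points numbered by replicate and bars at the group mean of 2 libraries, knockout left of control. The PLAU points of the knockouts (214 and 123) lie far above those of the controls (8.35 and 29.2), while the points of PLAUR, CTSB and MMP14 overlap between groups.

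PLAU, the urokinase gene, had the smallest unadjusted p of the members. It had 214 and 123 FPKM in the knockouts, against 8.35 and 29.2 FPKM in the controls. Both knockouts were high and both controls low, with no overlap. The values rest on 462 and 406 reads in the knockouts and on 48 and 145 in the controls, and their exact Poisson 95% intervals, which cover counting error only, were 195 to 235 and 111 to 136 FPKM against 6.16 to 11.1 and 24.6 to 34.3 FPKM. Among protein-coding genes above 0 in the same library, PLAU stood at or above 97.2% and 96.1% in the knockouts and at or above 42.8% and 76.8% in the controls.

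The mean level of PLAU was 169 ± 64.3 FPKM in the knockouts and 18.8 ± 14.7 FPKM in the controls (SD, n = 2 each). Its fitted log2 fold change was 3.33 ± 0.95 (SE), with an adjusted p of 0.182 in limma (unadjusted 0.000429), so it did not pass the threshold over all genes. Without the eBayes trend the SE was 1.48 and the unadjusted p in limma was 0.0663. PLAU was higher in 4 of 4 pairings of a knockout with a control library. With 1 library left out in turn the fitted value lay between 2.46 and 4.20, and the adjusted p over all alternatives lay between 0.0882 and 0.891. An exact permutation test of 2 against 2 libraries cannot give a two-sided p below 0.333.

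PLAU (ENSG00000122861) spans positions 73909177 to 73917497 of chromosome 10 in hg38, plus strand. A gene on the opposite strand, C10orf55, overlaps it, and the strand setting of the counting is not given. C10orf55 was listed at 0, 0.642, 0 and 0 FPKM in knockout 1, knockout 2, control 1 and control 2. Among 9624 protein-coding genes tested, the 3 whose centred log2 values over the 4 libraries were nearest to those of PLAU were SLC25A29, SECISBP2L and FAM160B1, at root mean square differences of 0.07, 0.15 and 0.15 on the log2 scale. SLC25A29, a mitochondrial amino acid carrier, had 19.8 and 10.3 FPKM in the knockouts against 0.358 and 2.48 FPKM in the controls. With 4 libraries such likeness is a description only.

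PLAUR, the receptor that holds urokinase at the cell surface, did not follow its ligand. It had 3.06 and 80.6 FPKM in the knockouts, against 55.2 and 64.1 FPKM in the controls. Knockout 1 was low, with 4 reads, and knockout 2 was the highest library of all, with 161 reads. The fitted log2 fold change of −1.82 ± 1.14 (SE, adjusted p = 0.955 in limma) rests on knockout 1, since it was 0.44 without that library and −4.07 without knockout 2. The controls differed by a factor of 1.16 from each other and the knockouts by a factor of 26.3. The gene (ENSG00000011422) spans positions 43646095 to 43670547 of chromosome 19, minus strand.

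The ratio of ligand to receptor transcript, PLAU FPKM over PLAUR FPKM, was 69.96 and 1.53 in the knockouts against 0.151 and 0.455 in the controls. Both knockouts lay above both controls, and knockout 1 and knockout 2 lay further from each other than knockout 2 from control 2. Knockout 1 combined the highest PLAU value with the lowest PLAUR value of the 4 libraries.

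PLAT, the tissue-type plasminogen activator gene on chromosome 8, was listed at 0 in every library. A floor of 3 reads equals 1.07 and 0.699 FPKM in the knockouts and 0.401 and 0.463 FPKM in the controls. The exact Poisson 95% upper limits at 0 reads, for counting error only, were 1.31 and 0.859 FPKM in the knockouts and 0.493 and 0.570 FPKM in the controls. PLAT was thus not detectable at this depth, and it was not tested.

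SERPINE2, a serpin that inhibits urokinase, thrombin and plasmin, was low throughout. It had 4.94 and 0.942 FPKM in the knockouts, against 0.541 and 0 FPKM in the controls. Both knockouts were above both controls, but knockout 2 and control 1 rest on 7 reads each, and their counting intervals of 0.379 to 1.94 FPKM and 0.217 to 1.11 FPKM overlap. Its log2 fold change in the fit, 1.96 ± 2.67 (SE, adjusted p = 0.955 in limma), was smaller than its standard error, and it was 1.00 without knockout 1.

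CTSL, which encodes cathepsin L, had 10.2 and 19.3 FPKM in the knockouts, against 0 and 1.47 FPKM in the controls. Both knockouts lay above both controls, which were at or near 0, on 18 and 52 reads against 0 and 6. In the control at 0, a floor of 3 reads equals 0.637 FPKM, and the exact Poisson 95% upper limit was 0.784 FPKM, for counting error only. The mean was 14.7 ± 6.42 FPKM in the knockouts and 0.737 ± 1.04 FPKM in the controls (SD, n = 2 each). For CTSL the fitted log2 fold change of 3.87 ± 2.66 (SE, adjusted p = 0.955 in limma) did not pass, ranged from 2.88 to 4.86 with 1 library left out, and depends on the pseudocount because of the value at 0. The gene (ENSG00000135047) spans positions 87725519 to 87731393 of chromosome 9, plus strand.

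CTSB, which encodes cathepsin B, showed no separation. It had 29.2 and 11.4 FPKM in the knockouts, against 47.5 and 3.72 FPKM in the controls. The highest and the lowest library were both controls, which differed by a factor of 12.8 (398 and 27 reads). The mean was 20.3 ± 12.6 FPKM in the knockouts and 25.6 ± 31.0 FPKM in the controls (SD, n = 2 each), lower in the knockouts, while the fitted log2 fold change of 0.40 ± 1.49 (SE, adjusted p = 0.991 in limma) pointed upward. The fitted value turned to −1.35 without control 2 and to −0.25 without knockout 1. CTSB over CTSL was 2.87 and 0.594 in the knockouts and 2.53 in control 2, and has no value in control 1, where CTSL was at 0.

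ADAM17, the main sheddase of tumour necrosis factor and of several ligands of the EGF receptor, had 97.7 and 15.6 FPKM in the knockouts, against 0.213 and 15.1 FPKM in the controls. Knockout 1 stood high and control 1 near 0, while knockout 2 and control 2 were alike within counting error, at 95% intervals of 12.4 to 19.3 and 12.6 to 18.0 FPKM. The reads behind these values were 345 and 84 in the knockouts and 2 and 123 in the controls. They were recovered with a transcript length of 4349 nt that was solved from the values, since the longest annotated transcript (6573 nt) gave no whole reads. The fitted log2 fold change of 3.57 ± 1.73 (SE, adjusted p = 0.955 in limma) was 1.35 to 5.80 with 1 library left out. The gene (ENSG00000151694) spans positions 9488486 to 9556732 of chromosome 2, minus strand, where IAH1 on the opposite strand overlaps it. IAH1 was above 0 in knockout 2 alone, at 2.60 FPKM.

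ADAM10, the related sheddase that also starts Notch receptor cleavage, had 48.1 and 20.9 FPKM in the knockouts, against 10.9 and 19.1 FPKM in the controls. The groups did not overlap, but knockout 2 and control 2 again lay close together, with 95% counting intervals of 18.6 to 23.5 and 17.3 to 21.0 FPKM. The fitted log2 fold change was 1.11 ± 1.32 (SE, adjusted p = 0.955 in limma), smaller than its standard error, and 0.52 to 1.70 with 1 library left out. The FPKM of ADAM10 rest on a transcript of 11431 nt, the longest of the members, which understates the level if shorter transcripts dominate. The ratio of ADAM17 FPKM to ADAM10 FPKM was 2.03 and 0.743 in the knockouts and 0.0195 and 0.792 in the controls, so the sheddase pair kept a like proportion in knockout 2 and control 2 and not in the other libraries.

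MMP14, the membrane collagenase, had 4.95 and 19.7 FPKM in the knockouts, against 2.35 and 8.88 FPKM in the controls. The groups overlapped, and the replicates of each group differed by a factor of 3.97 and 3.77. The fitted log2 fold change of 1.02 ± 2.10 (SE, adjusted p = 0.977 in limma) was 0.08 without knockout 2.

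In order of mean FPKM the knockouts ran PLAU (169), ADAM17 (56.6), PLAUR (41.8), ADAM10 (34.5), CTSB (20.3), CTSL (14.7), MMP14 (12.3), SERPINE2 (2.94) and PLAT (0). The controls ran PLAUR (59.6), CTSB (25.6), PLAU (18.8), ADAM10 (15.0), ADAM17 (7.66), MMP14 (5.62), CTSL (0.737), SERPINE2 (0.270) and PLAT (0). PLAU held the top place in the knockouts in each library, whereas the places from ADAM17 to MMP14 there have SDs of 6.42 to 58.1 FPKM that span their neighbours. In the controls PLAUR stood above the other members in both libraries, and PLAU, CTSB and ADAM10 do not differ beyond their spread. The summed FPKM of the 9 members was 412 and 292 in the knockouts against 125 and 142 in the controls. Knockout 1 held the highest value of 4 members and control 1 the lowest, alone or tied, of 5.

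**Figure D2:**
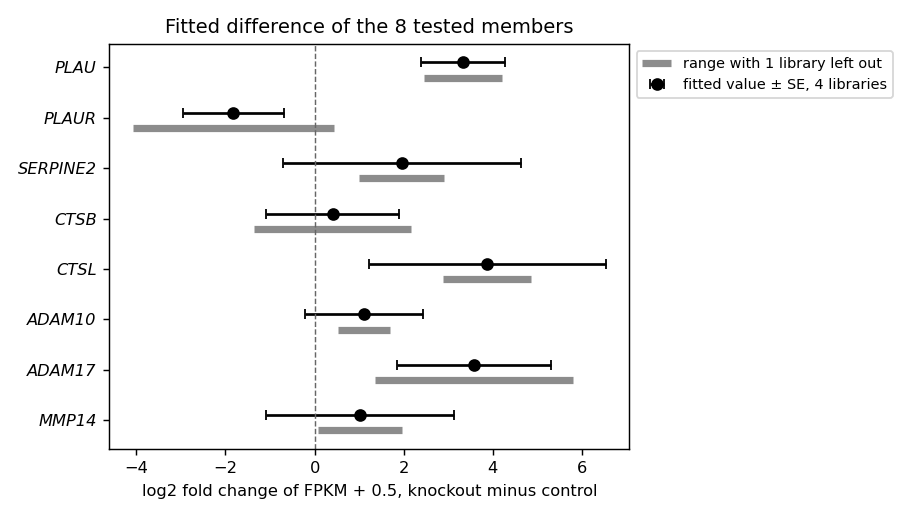
Fitted log2 fold change of FPKM + 0.5, knockout minus control, for the 8 tested members, with bars of ± 1 SE from limma and grey bars for the range with 1 library left out. The grey bars of PLAUR and CTSB cross 0, and that of PLAU runs from 2.46 to 4.20.

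Around the activators, plasminogen itself (PLG) and vitronectin (VTN) were at 0 in all 4 libraries. Of 13 receptors and helpers 6 were tested and 0 passed in limma, with 3 higher, 3 lower and a median log2 fold change of −0.08. ENO1, a glycolytic enzyme that also binds plasminogen, had 672 and 778 FPKM in the knockouts against 625 and 777 FPKM in the controls. ANXA2, which with its partner S100A10 binds plasminogen at the membrane, had 271 and 197 FPKM in the knockouts against 141 and 177 FPKM in the controls, without overlap (log2 fold change 0.54 ± 0.59 SE, adjusted p = 0.955 in limma). LRP1, the endocytic receptor that clears urokinase bound to its inhibitor, had 6.45 and 7.42 FPKM in the knockouts against 19.2 and 13.7 FPKM in the controls, also without overlap (log2 fold change −1.17 ± 1.76 SE, adjusted p = 0.955).

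Among 11 further inhibitors of the activators and of plasmin, 3 were tested and 0 passed in limma, with 2 higher, 1 lower and a median of 1.57. SPINT2, a Kunitz-type inhibitor of membrane serine proteases, had 74.7 and 75.8 FPKM in the knockouts against 25.6 and 4.77 FPKM in the controls. Both knockouts were high (log2 fold change 2.69 ± 1.17 SE, unadjusted p = 0.0213, adjusted p = 0.955 in limma). TFPI2, a Kunitz-type inhibitor of plasmin and other proteases, had 33.3 and 15.8 FPKM in the knockouts against 79.3 and 60.4 FPKM in the controls, both knockouts low (log2 fold change −1.57 ± 1.04 SE, adjusted p = 0.955).

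The other cathepsins lay on both sides of 0. Of 14 genes 7 were tested and 0 passed in limma, with 3 higher, 4 lower and a median of −0.25. That median was −2.27 without knockout 2, −1.62 without control 1 and 1.15 without control 2, where 4 of the 7 were higher. CTSV, the closest relative of CTSL, had 0.285 and 1.31 FPKM in the knockouts against 18.0 and 11.6 FPKM in the controls, a log2 fold change of −3.65 ± 2.58 (SE, adjusted p = 0.955 in limma). CTSL was thus the higher of this pair in both knockouts and CTSV in both controls. Reads can be shared between near-identical stretches of such relatives, and sharing was not tested here. CTSZ, a carboxypeptidase of the family, had 2.47 and 11.9 FPKM in the knockouts against 84.5 and 14.7 FPKM in the controls, where control 1 stands apart. CTSA, a serine carboxypeptidase of lysosomes and the most abundant of the list, overlapped at 31.0 and 49.9 FPKM in the knockouts against 10.4 and 36.4 FPKM in the controls.

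Cystatins, the inhibitors of cysteine cathepsins, were mostly absent, with 6 of 8 at 0 in all 4 libraries and 2 tested. CSTB, which encodes cystatin B, had 24.1 and 7.19 FPKM in the knockouts against 51.1 and 40.9 FPKM in the controls. Both knockouts were below both controls (log2 fold change −1.75 ± 1.25 SE, adjusted p = 0.955 in limma).

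Among the other ADAM sheddases 4 of 7 were tested and 0 passed in limma, with 1 higher, 3 lower and a median of −1.11. ADAM15 had 8.47 and 1.25 FPKM in the knockouts against 55.1 and 23.8 FPKM in the controls, below in 4 of 4 pairings and so opposite in direction to ADAM10 and ADAM17 (log2 fold change −3.21 ± 1.70 SE, unadjusted p = 0.0584, adjusted p = 0.955). ADAM9, the most abundant, overlapped at 35.9 and 8.61 FPKM in the knockouts against 26.9 and 25.3 FPKM in the controls.

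Genes whose products ready ADAM10 and ADAM17 for action held the 2 largest fitted rises among the 9 lists of related genes. Of 13, 10 were tested and 0 passed in limma (2 at an unadjusted p under 0.05), with 6 higher, 4 lower and a median of 0.47. With a library left out the median lay between −0.07 (without control 1) and 1.01 (without control 2). FURIN, the convertase that removes the prodomains of ADAM10, ADAM17 and MMP14, had 28.6 and 36.6 FPKM in the knockouts against 0 and 7.87 FPKM in the controls. Both knockouts were above both controls, on 101 and 197 reads against 0 and 64 (log2 fold change 4.01 ± 2.01 SE, unadjusted p = 0.0463, adjusted p = 0.955). TSPAN15, a tetraspanin that guides ADAM10 to substrates such as N-cadherin, had 60.2 and 9.97 FPKM in the knockouts and 0 FPKM in both controls. On reads scaled for depth it was at least 68.1-fold higher in the knockouts, set against a floor of 3 reads over the control group and counting error only (adjusted p = 0.955 in limma). The bound was 22.8-fold without knockout 1 (21 reads left) and 137-fold without knockout 2 (83 reads left). PCSK7, another convertase, had 3.16 and 7.59 FPKM in the knockouts against 8.02 and 15.2 FPKM in the controls. Both knockouts lay below both controls, but knockout 2 and control 1 were close together. Its log2 fold change, −1.09 ± 2.04 (SE, adjusted p = 0.976 in limma), was smaller than its standard error. FRMD8, which stabilises the iRhom partners of ADAM17, had 59.6 and 39.9 FPKM in the knockouts against 25.5 and 32.6 FPKM in the controls, without overlap.

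Other matrix metalloproteinases were nearly silent. Of 16 genes, 12 were at 0 in all 4 libraries, MMP1, MMP2, MMP3, MMP7 and MMP9 among them, so that of the secreted enzymes that MMP14 is known to activate, MMP2 and MMP13 were not detectable at this depth. MMP17, another membrane-bound member and the most abundant of the list, overlapped at 12.3 and 25.1 FPKM in the knockouts against 52.9 and 9.53 FPKM in the controls. The list had 3 tested genes, 0 of them past the threshold in limma (0 at an unadjusted p under 0.05), with a median of −0.81.

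Of 9 metalloproteinase inhibitors and membrane partners of MMP14, 6 were tested and 0 passed in limma, with 4 higher, 2 lower and a median of 0.61. CD9, a tetraspanin that associates with membrane proteases and integrins, had 191 and 93.3 FPKM in the knockouts against 24.1 and 21.3 FPKM in the controls. Both knockouts were high (log2 fold change 2.53 ± 0.92 SE, unadjusted p = 0.00575, adjusted p = 0.794). BSG, known as an inducer of metalloproteinases, had 206 and 59.5 FPKM in the knockouts against 230 and 219 FPKM in the controls, where knockout 2 stands apart (log2 fold change −1.01 ± 0.63 SE, adjusted p = 0.955).

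Substrates that ADAM10 and ADAM17 are known to shed were split. Of 35, 26 were tested and 0 passed in limma, with 14 higher, 12 lower and a median of 0.29, and TNF, TGFA, EGF and BTC were at 0 in all 4 libraries. Both knockouts were above both controls for 5 of the 26 and below for 5, beside 12.1% and 14.4% of all genes tested. SDC4, a heparan sulfate proteoglycan of focal adhesions, had 127 and 55.5 FPKM in the knockouts against 4.25 and 11.7 FPKM in the controls, with a log2 fold change of 3.48 ± 1.25 (SE, unadjusted p = 0.00529, adjusted p = 0.787 in limma). ALCAM, an adhesion molecule, was low at 3.67 and 2.57 FPKM in the knockouts against 0 and 1.14 FPKM in the controls. CXCL16, a membrane-bound chemokine, was at 0 in both knockouts against 13.9 and 3.61 FPKM in the controls, at least 13.9-fold lower against a floor of 3 reads over the knockout group (counting error only). The bound was 5.48-fold without control 1 (15 reads left) and 21.2-fold without control 2 (67 reads left). NRG1, a ligand of the ERBB3 and ERBB4 receptors, had 0 and 3.94 FPKM in the knockouts against 13.1 and 13.8 FPKM in the controls. APP, the amyloid precursor and the most abundant substrate, overlapped at 214 and 384 FPKM in the knockouts against 330 and 498 FPKM in the controls.

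**Figure D3:**
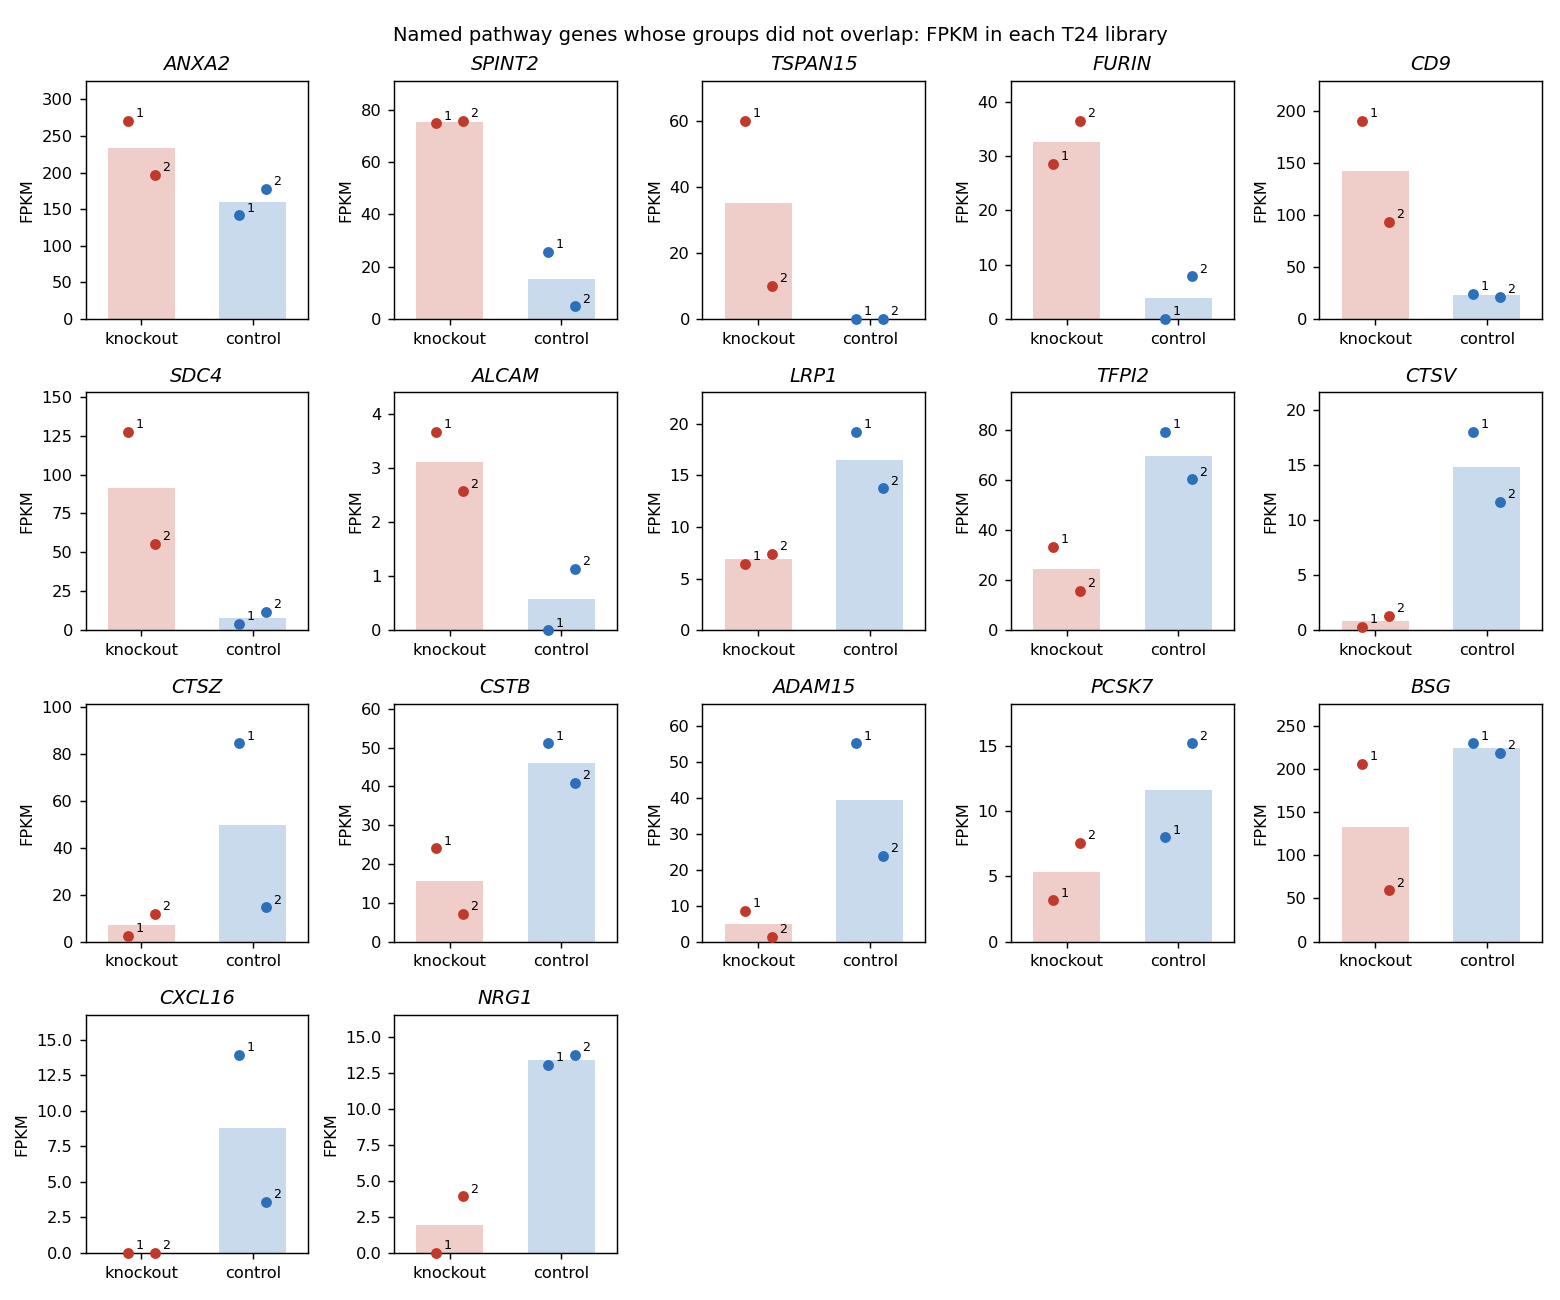
FPKM (linear axis from 0) in each library of 17 of the 24 genes of the 9 lists whose groups did not overlap, at most 2 with the largest fitted rise and 2 with the largest fitted fall per list, with points numbered by replicate and bars at the group mean, knockout left of control. The first 7 panels, ANXA2 to ALCAM, have both knockout points above both control points, and the other 10, LRP1 to NRG1, have both below. Of all 24, both knockouts were above in 11 and below in 13. Over all genes tested, both knockouts were above in 12.1% and below in 14.4%. The number tested in each list is given with that list.

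**Figure D4:**
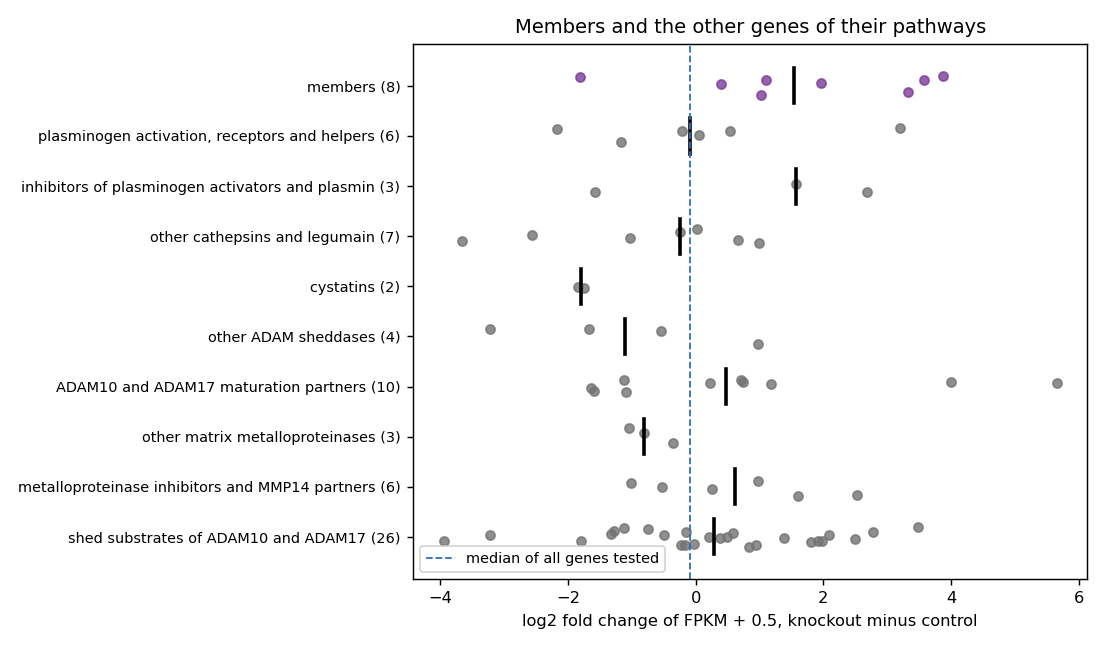
Fitted log2 fold change of FPKM + 0.5, knockout minus control, of each tested gene (point; vertical jitter only separates points) in the members and in 9 lists of related genes, with the number tested in parentheses, the median as a black bar and the median of all genes tested (−0.08) as a dashed line. The members' median is 1.53, and the lists' medians lie on both sides of 0.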

How the data were processed

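PolyA RNA libraries of T24 cells, 2 IGF2BP3 knockout and 2 control, were analysed. Libraries followed an Illumina TruSeq protocol, per the labels' protocols. The authors deposited 1 FPKM table per library. HTSeq did the counting, per the file names, on hg38, per the submitters' processing notes. Aligner, annotation release and strand setting: not given in the sources used here. Names and positions came from GENCODE 29 (58039 of 58302 genes matched).

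Multiplied by the longest transcript, 96.4 to 96.5% of values above 0 were whole multiples of the worth of 1 read (tolerance of 0.001 reads). Lengths of 322 further genes were solved from the values, taking the smallest that fits, so their reads could be a multiple. An FPKM set by the longest transcript understates genes whose shorter transcripts dominate.

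Genes averaging 1 FPKM or more were tested with limma 3.58.1 in R 4.3.3 (eBayes with trend) on log2(FPKM + 0.5), as a two-sided test, and p-values were Benjamini-Hochberg adjusted (threshold 0.05). The steps were run on simulated reads that were set to spread less between replicates than these data, to check direction and size only. That check does not show how the test performs at the spread seen here. Lists are described by counts and medians, with no test. The members and lists were chosen with earlier results of these data known, and 1 listed gene is not reported here. Named from each list were genes past the threshold, up to 2 in each direction with the largest fitted change among those whose groups did not overlap, and the most abundant. Other settings tried were 2 pseudocounts, 2 filters, 3 scalings, eBayes without trend, the replicate block, each library left out, a looser threshold and limma-voom on recovered reads. Promoters are from RefSeq (GRCh38.p14). Python 3.11.15 and matplotlib 3.10.9 joined files and drew figures.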

Additional observations from a re-analysis of the deposited data

How the results depend on the processing

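No member passed the threshold in limma or limma-voom under any of the alternatives with all 4 libraries. The looser adjusted p of 0.1 was applied only to the limma fit described above, where 0 members passed it. With the filter at a mean FPKM of at least 5, the adjusted p of PLAU was 0.0882 in limma, which is below 0.1. PLAU, SERPINE2, CTSL, ADAM10, ADAM17 and MMP14 kept a fitted value above 0, and IGF2BP3 one below 0, in every alternative that tested them. SERPINE2 was not tested at a mean FPKM of at least 5. PLAU lay between 3.13 and 3.37 with all 4 libraries. PLAUR turned to 0.44 without knockout 1 (range −4.07 to 0.44 with 1 library left out), and CTSB to −0.25 without knockout 1 and to −1.35 without control 2 (range −1.35 to 2.16); the cause was not tested.

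The count of 10 genes was 18 at an adjusted p of 0.1 and 0 in limma when eBayes used no trend (unadjusted p under 0.05: 415 genes). It was 0 in limma with any 1 of the 4 libraries left out (unadjusted p under 0.05: 752 to 1025 genes), fits in which a lone library takes its spread from the other group. The members' median of 1.53 was 2.35 under limma-voom and 1.48 to 2.31 with a library left out. The median of the 3 plasmin inhibitors, 1.57, was 2.67 at a pseudocount of 0.1, 0.21 with no filter, 0.81 after quantile normalization, 2.66 under limma-voom and −1.37 to 2.68 with a library left out. That of the other ADAM genes, −1.11, was −1.67 and −0.88 at pseudocounts of 0.1 and 1, −0.55 with no filter, −1.88 at a mean FPKM of at least 5, −1.70 under limma-voom and −1.97 to −0.49 with a library left out. At a mean FPKM of at least 5, the median of the inhibitors and partners of MMP14 turned from 0.61 to −0.14 and that of the plasminogen receptors and helpers from −0.08 to 0.05 (0.01 under limma-voom). With a library left out, the medians lay between −2.27 and 1.15 for the other cathepsins, −2.62 and −0.96 for the cystatins, −0.07 and 1.01 for the maturation partners of ADAM10 and ADAM17, −0.40 and 0.14 for the plasminogen receptors and helpers, −1.66 and 0.12 for the other metalloproteinases, −0.17 and 1.79 for the inhibitors and partners of MMP14, and −0.72 and 0.86 for the substrates, and that of all genes tested between −0.56 and 0.34.

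Under the replicate block, 14 genes and 0 members passed, and the adjusted p of PLAU was 0.544. Same-numbered libraries did not deviate together (correlation −0.004 across genes), so the numbers were not taken as pairs. PLAT, SERPINE2 and CTSL rest on few reads, 0 to 52 per library. CTSL had 0 reads in control 1, the library with the most reads, and 18 in knockout 1, the library with the fewest. The part of depth was not tested.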
